A study of Mus musculus with 6 samples.

Results

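Accessible chromatin intervals that lay deep inside genes were examined in Beko cells. This line consists of progenitor T-cells of the mouse in which Notch signaling is always active. A peak of the ATAC-Seq list was taken when it lay on an autosome, more than 1 kb from every annotated transcript start, and was CpG-poor. CpG-poor means that the ratio of observed to expected CpG was under 0.6 or the GC content was under 50% over the peak. In addition, its centre had to lie in no exon of any transcript and in intron 2 or later, counted from the 5′ end, of the longest protein-coding transcript over it. These rules gave 6416 later-intron peaks, which are 20.1% of the 31879 autosomal peaks and 31.9% of the 20087 distal CpG-poor ones. The whole list held 32527 peaks. For comparison, 2682 CpG-poor peaks lay in first introns, and 7557 lay outside all annotated genes between 1 and 50 kb from a start (intergenic peaks).

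The list was made from 6 libraries in 2 groups of 3, cells given DAPT, an inhibitor of γ-secretase (GSI), and cells given its solvent DMSO, both for 24 h. GSI blocks the cleavage that frees the Notch1 intracellular domain. All libraries came from this 1 cell line, and no genetic change is named in the labels. The authors merged the libraries into 1 list with a position for each peak and no value per library, so GSI was not compared with DMSO, the read depth behind a peak is unknown and no replicate error exists. Errors below are the SD over the 19 autosomes, and the permutation tests flip the sign of the 19 per-autosome values (two-sided, 100000 flips, no p below 1e-05). Chromosomes are blocks of 1 genome and not replicates of the experiment. As a check of the label, 11 of 12 marker genes of T-cell progenitors had a peak within 1 kb of a start (Cd3d had none), against 0 of 6 B-cell and 0 of 6 myeloid markers. Such a promoter peak was also found at the erythroid genes Gata1, Klf1 and Epor (3 of 4 erythroid markers) and at Col1a1 (1 of 4 markers of other tissues). Of 25 B-cell and myeloid genes followed further on, 4 had one, namely Cr2, Pou2af1, Spi1 and Bcl6. Among all autosomal coding genes with later-intron sequence, 67.4% of those with a later-intron peak and 53.0% of the others had a promoter peak.

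Introns are transcribed and spliced out, yet they carry much of the regulatory DNA of mammalian genomes. Enhancers inside introns are bound by transcription factors at short sequence cores and can act on the gene that holds them or on a neighbour. T-cell progenitors depend on E proteins, which bind E-boxes, and on RUNX, ETS, GATA, TCF, MYB and Ikaros factors, while RBPJ is the DNA-binding partner of the Notch intracellular domain. CTCF, a zinc finger protein, binds a longer core and marks the anchors of chromatin loops.

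To show what such a peak contains, the central 200 bp are given for 1 peak in each of 10 genes. The genes are those with most later-intron peaks among 6 gene lists of lymphoid, Notch, cytokine, B-cell and myeloid, and neuronal genes. In each gene the peak with most different cores was taken, and then the widest, so the cores shown are more than in a typical peak. The degenerate RBPJ core was not counted for this choice. All are on the plus strand of mm9, 5′ to 3′, and capitals mark matches to the searched cores on either strand. The cores were CAGCTG and CAGGTG for E-boxes, GGAAGT for ETS, TGTGGT for RUNX and TGGGAA for RBPJ and Ikaros. GATA factors were searched as AGATAA and TCF or LEF factors as CTTTGA. The NFAT core was GGAAAA and the MYB core was TAACNG. The AP-1 core was TGANTCA, and STAT dimers were searched as TTCNNNGAA. SP factors were searched as GGGCGG, and the longer CTCF core has 16 forms, of which 4 are given further on. The degenerate RBPJ core, which is TGGGAA or TGAGAA, was searched but is not capitalised.
Runx1, intron 5, chr16:92645073-92645272: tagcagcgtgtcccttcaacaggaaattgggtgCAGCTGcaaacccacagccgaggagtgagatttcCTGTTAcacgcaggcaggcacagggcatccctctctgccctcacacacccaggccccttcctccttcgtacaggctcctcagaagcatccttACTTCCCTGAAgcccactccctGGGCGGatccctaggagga
Ikzf1, intron 3, chr11:11616688-11616887: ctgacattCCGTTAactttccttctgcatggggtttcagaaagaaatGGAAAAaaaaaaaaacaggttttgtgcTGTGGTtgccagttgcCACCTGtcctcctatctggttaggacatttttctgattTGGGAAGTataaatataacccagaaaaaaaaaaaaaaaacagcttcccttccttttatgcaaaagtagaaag
Rora, intron 2, chr9:69193545-69193744: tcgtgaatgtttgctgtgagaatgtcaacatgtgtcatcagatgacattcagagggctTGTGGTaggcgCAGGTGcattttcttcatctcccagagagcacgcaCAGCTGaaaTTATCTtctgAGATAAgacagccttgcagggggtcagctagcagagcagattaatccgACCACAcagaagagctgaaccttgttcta
Runx2, intron 5, chr17:44645361-44645560: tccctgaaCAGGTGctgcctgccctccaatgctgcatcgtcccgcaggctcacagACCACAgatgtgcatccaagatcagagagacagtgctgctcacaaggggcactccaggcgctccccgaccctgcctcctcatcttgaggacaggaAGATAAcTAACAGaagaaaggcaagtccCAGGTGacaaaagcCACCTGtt
Ets1, intron 3, chr9:32480013-32480212: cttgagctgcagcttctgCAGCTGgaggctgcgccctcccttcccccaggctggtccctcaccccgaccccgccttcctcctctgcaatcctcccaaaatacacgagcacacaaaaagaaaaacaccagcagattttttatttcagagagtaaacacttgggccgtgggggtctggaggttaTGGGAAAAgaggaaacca
Bcl11b, intron 3, chr12:109166290-109166489: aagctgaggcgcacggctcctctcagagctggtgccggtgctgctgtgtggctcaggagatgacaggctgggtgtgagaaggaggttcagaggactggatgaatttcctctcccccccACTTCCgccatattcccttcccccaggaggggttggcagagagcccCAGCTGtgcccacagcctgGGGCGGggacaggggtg
Itpkb, intron 2, chr1:182337311-182337510: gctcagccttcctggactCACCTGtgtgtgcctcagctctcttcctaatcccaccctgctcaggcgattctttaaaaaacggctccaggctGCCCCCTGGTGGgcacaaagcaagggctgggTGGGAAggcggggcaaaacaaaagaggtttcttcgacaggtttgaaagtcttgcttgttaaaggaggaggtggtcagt
Fyn, intron 3, chr10:39222150-39222349: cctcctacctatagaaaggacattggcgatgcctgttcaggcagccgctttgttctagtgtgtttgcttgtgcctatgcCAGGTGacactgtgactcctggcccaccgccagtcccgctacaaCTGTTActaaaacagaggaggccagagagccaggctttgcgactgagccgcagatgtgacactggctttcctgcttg
Cacna1c, intron 29, chr6:118596802-118597001: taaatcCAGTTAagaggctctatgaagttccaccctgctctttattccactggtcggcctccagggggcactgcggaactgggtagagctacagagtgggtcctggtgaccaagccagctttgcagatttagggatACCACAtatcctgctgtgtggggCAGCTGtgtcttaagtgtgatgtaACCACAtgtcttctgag
Nrxn2, intron 15, chr19:6492322-6492521: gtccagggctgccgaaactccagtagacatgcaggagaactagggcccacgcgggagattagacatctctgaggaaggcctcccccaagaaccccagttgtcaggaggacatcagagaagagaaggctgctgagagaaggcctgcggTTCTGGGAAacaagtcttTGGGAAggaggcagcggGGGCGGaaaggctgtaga

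The genes behind these windows have well-known roles. Runx1, Runx2, Ets1, Bcl11b and Ikzf1 (Ikaros) encode transcription factors of blood or bone, and Rora encodes a nuclear receptor. Fyn is a Src-family kinase of the T-cell receptor, and Itpkb is a kinase that phosphorylates inositol trisphosphate. Cacna1c encodes a pore subunit of L-type calcium channels and Nrxn2 a neurexin of the synapse. The window of Ikzf1 held 6 different cores besides the degenerate one, among them an RBPJ core overlapping an ETS core in 1 run of capitals. In Rora, 2 RUNX cores stood beside both E-boxes and 2 GATA cores. Of the 10 windows, that of Itpkb was the 1 with a CTCF core, and Runx2 held 3 copies of CAGGTG. In Nrxn2, neither an E-box nor a RUNX or ETS core was present, but 2 RBPJ and Ikaros cores were.

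Later-intron peaks were narrow. Their median width was 455 bp. The middle 50% of them measured 382 to 585 bp, the narrowest 217 bp and the widest 2335 bp, and 245 of them (3.82%) were wider than 1 kb. Together they covered 3.31 Mb. The median width of first-intron peaks was 471 bp. Per autosome the median of later-intron peaks was smaller by 16.2 ± 20.1 bp (SD, n = 19 autosomes, permutation test, p = 0.00261), and it was the smaller one on 17 of 19 autosomes. Against intergenic peaks, with a median of 463 bp, the difference was -9.21 ± 18.3 bp (smaller on 15 of 19 autosomes, permutation test, p = 0.0437). With a CpG ratio under 0.4 the difference from intergenic peaks was -6 bp and did not pass (permutation test, p = 0.142). The 5 widest lay in BC055111 (2335 bp), the histone H3K4 methyltransferase gene Setd1b (2106 bp), the septin gene Sept9 (2046 bp), Ahdc1 (1977 bp) and the syntaxin gene Stx8 (1898 bp). The peak of BC055111 was wider than the intron of 1532 bp that held its centre, so it reached over exons.

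As the CpG rule demands, these peaks held few CpG. The median ratio was 0.199 and the median GC content 50%, and 3212 of the 6416 passed by the ratio alone, 21 by GC content alone and 3183 by both. At the limits, the nearest member had a ratio of 0.598 and the nearest excluded peak 0.603, and the corresponding distances from a start were 1001 and 998 bp. In later introns 53 distal peaks were left out as CpG-rich.

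The peaks were spread over many genes. They lay in 5088 introns of 3315 genes, which is 20.9% of the 15858 autosomal coding genes with later-intron sequence. In 2069 of these host genes (62.4%) there was 1 peak, 255 genes held 5 or more, with 1832 of the peaks between them, and 38 genes held 10 or more. The median intron with a peak measured 10584.5 bp and the median intron number was 5, the highest being intron 100 of the ryanodine receptor gene Ryr1. From the start of the host transcript the median distance was 53270.5 bp, against 19385 bp in first introns, while the nearest start of any transcript lay 13984.5 bp away (9850.5 bp in first introns). That start belonged to the host gene in 63.97% of cases. Among coding starts, the nearest belonged to another gene for 1353 later-intron peaks (21.1%) and for 11.2% of first-intron peaks, which lie nearer to the start of their host by the rule, so this is given as a description. Transcript choice matters for some peaks, since 576 (8.98%) lay in intron 1 of another coding transcript and 143 in a non-coding gene.

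Several of the genes with most peaks had long annotated introns, and some hosts overlap other genes. Camta1, a calmodulin-binding transcription activator, held 26 peaks in 7 introns, at 3.49 peaks per 100 kb of later-intron sequence. Clec16a, an endosomal protein gene, held 18 at 10.7 per 100 kb. For 6 of these 18 the nearest coding start was that of Socs1, a feedback inhibitor of cytokine signaling. Tbc1d22a, with a Rab GTPase-activating domain, held 17 (6.52 per 100 kb), and Wwox, an oxidoreductase gene, held 15 (1.70 per 100 kb), of which 14 lay in intron 8. In Msi2, an RNA-binding protein gene, and Pard3, a cell polarity gene, 14 peaks each were found, at 3.95 and 3.33 per 100 kb. The 13 peaks of Tg, which encodes thyroglobulin, lay in 9 introns at 9.16 per 100 kb, and for 5 of them the nearest coding start was that of Sla, a Src-like adaptor of lymphocytes. 1700112E06Rik held 19 peaks at 1.87 per 100 kb.

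For Fgfr2, a fibroblast growth factor receptor, the count of 27 peaks reflects 1 annotated transcript. All 27 lay in intron 2 of this transcript, which is annotated with a length of 2956986 bp and within which 32 other coding genes start. Each of the 27 was nearest to a coding start of another gene, most often Lhpp (7 peaks), Chst15 (6) and Fam53b (4), and no promoter of Fgfr2 had a peak. The density, 1.02 per 100 kb, was close to the 10.7 per Mb over all later introns. Arfip1 was alike, with 15 peaks in an intron of 1244595 bp, all nearest to another coding start, which was that of Fbxw7 for 7 and of Tmem154 for 6. Fbxw7 is the substrate receptor of a ubiquitin ligase that acts on Notch and Myc proteins. In all, 148 peaks lay in 31 introns longer than 200 kb. Per length of later-intron sequence, among genes with at least 5 peaks, the densest were Paqr5 (16.6 per 100 kb), Slc12a3 (15.2), B230118H07Rik (13.6), Ttc7 (12.4) and Lamc3 (12.1).

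The density in later introns was then compared with that in first introns. The 599.857 Mb of autosomal later-intron sequence carried 10.7 peaks per Mb. Over the autosomes it averaged 10.8 ± 2.43 per Mb, from 7.26 on chromosome 3 to 16.5 on chromosome 11. By intron number, density was 11.2 per Mb in intron 2, 10.6 in intron 3, 11.3 in intron 4, 10.4 in intron 5, 10.7 in introns 6 to 10 and 10.1 from intron 11 on. All these values lay within 1 SD over autosomes of each other, with SDs between 2.73 and 3.29. Intron 1 had 12.6 ± 2.49 per Mb, but first introns lie nearer to starts. The comparison at equal distance began at 2 kb, which leaves out the 306 later-intron peaks between 1 and 2 kb and the first-intron peaks there. At equal distance, later introns had 14.5 peaks per Mb and first introns 13.8 at 2 to 5 kb, and 14.4 against 16.4 at 5 to 10 kb. Farther out the densities were 13.7 against 16.3 at 10 to 20 kb, 10.5 against 11.4 at 20 to 50 kb and 5.48 against 5.25 beyond 50 kb. Standardised for distance, the log2 ratio of later to first introns was -0.09 ± 0.29 (SD, n = 19 autosomes; lower on 11, permutation test, p = 0.193), so the densities were not distinguished by this test. Among peaks of at least 500 bp the ratio was -0.23 and passed the permutation test (p = 0.00609).

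Within the intron, position was compared by distance to an exon. Within 1 kb of an exon there were 12.6 peaks per Mb and deeper 9.92 (log2 ratio 0.30 ± 0.22, higher on 18 of 19 autosomes, permutation test, p = 3.00e-05). Among peaks of at least 500 bp the ratio was 0.037 and did not pass (permutation test, p = 0.499). Moreover, the direction turned when introns of like length were compared. In introns under 5 kb the density was 13.4 per Mb near exons and 15.4 deeper, at 5 to 20 kb 11.5 and 12.8, at 20 to 50 kb 10.98 and 10.97, and over 50 kb 6.32 and 6.56. At equal intron length the log2 ratio was -0.19 ± 0.27 (lower on 14 of 19 autosomes, permutation test, adjusted p = 0.0115). Density was lower in longer introns, and fell from 13.8 peaks per Mb in introns under 5 kb to 12.5, 10.97 and 6.55 in the longer classes. Along the intron, in 5 equal parts from the 5′ end, the densities were 9.80, 11.3, 10.8, 11.2 and 10.3 per Mb, with SDs over autosomes from 2.40 to 3.24.

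**Figure D1:**
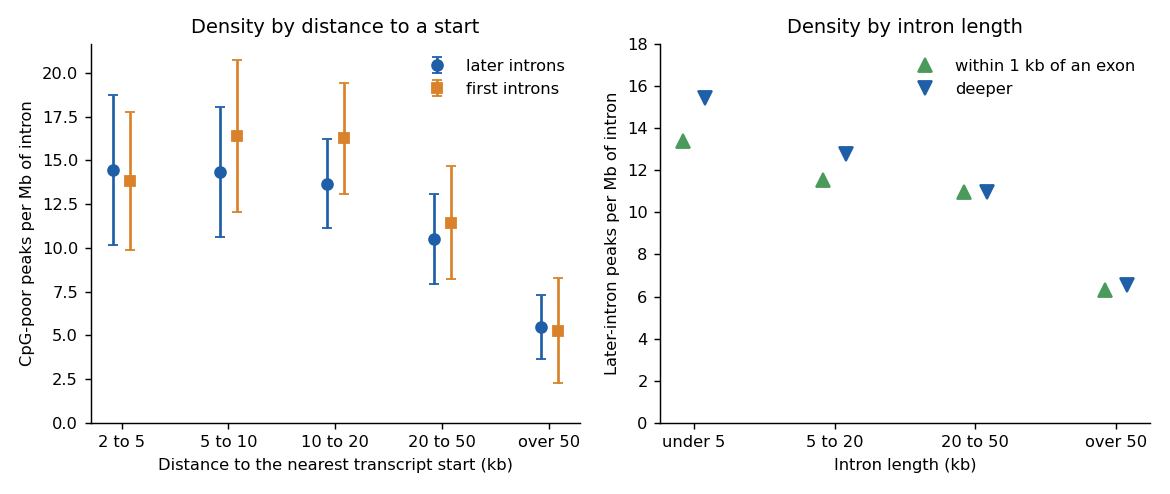
Left, CpG-poor peaks per Mb of intron sequence by distance to the nearest transcript start for later and first introns (points, all autosomes pooled, from 2 kb on; bars, SD over 19 autosomes). Right, later-intron peaks per Mb within 1 kb of an exon and deeper, by intron length (pooled values, no error shown). The bars of later and first introns overlap at each distance, and density falls with intron length to 6.55 per Mb over 50 kb.

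Sequence cores were compared between the central 200 bp of each peak and a window of equal length 2 kb away (6414 pairs). E-boxes, RUNX and ETS cores stood out. CAGCTG was found in 26.0% of later-intron peaks and 10.8% of flanks, and CAGGTG in 28.8% and 15.7%. The RUNX core occurred in 27.7% of peaks and 15.7% of flanks, and the ETS core in 21.1% and 10.8%. The CTCF core was found in 9.65% of peaks and 0.281% of flanks. Each of these 5 was higher in the peaks on 19 of 19 autosomes (permutation test, adjusted p = 3.50e-05 over 14 cores), by between 9.20 and 15.4 percentage points. Among peaks of at least 500 bp the CTCF difference was smaller, at 3.94 percentage points in place of 9.20, and still passed (permutation test, adjusted p = 7.00e-05). In the whole list of autosomal peaks the shares were 21.3% for CAGCTG, 23.5% for CAGGTG, 19.99% for RUNX, 20.3% for ETS and 6.25% for CTCF.

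Other cores differed less. The TCF and LEF core was found in 16.5% of peaks and 13.4% of flanks (higher on 15 of 19 autosomes, permutation test, adjusted p = 1.09e-04) and in 13.1% of all autosomal peaks. The SP core, which holds a CpG and is therefore touched by the CpG rule, occurred in 7.03% and 3.49% (permutation test, adjusted p = 3.50e-05), and in 23.3% of all peaks. The NFAT core was the rarer one in peaks, with 11.2% against 16.3% in flanks (lower on 19 of 19 autosomes, permutation test, adjusted p = 3.50e-05; 11.2% of all peaks). Among peaks of at least 500 bp the NFAT difference was -3.10 percentage points in place of -5.09, and that of TCF and LEF 4.78 in place of 3.12, and both passed. The GATA core (8.81% of peaks, 9.76% of flanks), AP-1 core (5.86% and 5.68%), MYB core (21.1% and 20.02%) and STAT core (5.35% and 5.64%) did not pass the test, with adjusted p from 0.106 to 0.875. The GATA core passed as the rarer one in peaks in windows of 400 bp (-2.16 percentage points, permutation test, adjusted p = 0.0408) and against flanks 10 kb away (-1.75, adjusted p = 0.0309). Against the latter the MYB core passed as the more frequent one (2.39 percentage points, permutation test, adjusted p = 0.0154). Their shares in all autosomal peaks were 6.85%, 4.98%, 16.9% and 4.84%.

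The RBPJ and Ikaros core did not go along with the E-boxes. TGGGAA was found in 16.4% of later-intron peaks and 19.2% of flanks, lower in the peaks on 19 of 19 autosomes (difference -2.87 ± 2.10 percentage points, permutation test, adjusted p = 3.50e-05). Its share in all autosomal peaks was 15.3%. The degenerate core was also the rarer one in peaks, with 30.3% against 33.3% (permutation test, adjusted p = 6.44e-04; 26.9% of all peaks), although this did not pass among peaks of at least 500 bp (adjusted p = 0.0568). A match of 6 bases is common in any sequence and is no evidence of binding, and its lower share says nothing of where RBPJ binds.

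Base composition moved with these comparisons, since the GC content was 51.2% in peak windows and 46.4% in flanks. In the 2699 pairs of near-equal GC content (50.3% and 49.7%), the differences were 13.0 percentage points for CAGCTG, 8.50 for CAGGTG, 12.9 for RUNX, 9.65 for ETS and 9.33 for CTCF. For the RBPJ and Ikaros core the difference there was -5.37 percentage points. All 6 passed the permutation test in these pairs, with adjusted p of at most 2.80e-04. The SP difference was 1.48 percentage points in these pairs, in place of 3.59, and was higher in peaks on 12 of 19 autosomes (permutation test, adjusted p = 0.0193). The MYB core passed in these pairs as well (2.91 percentage points, permutation test, adjusted p = 0.0351).

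**Figure D2:**
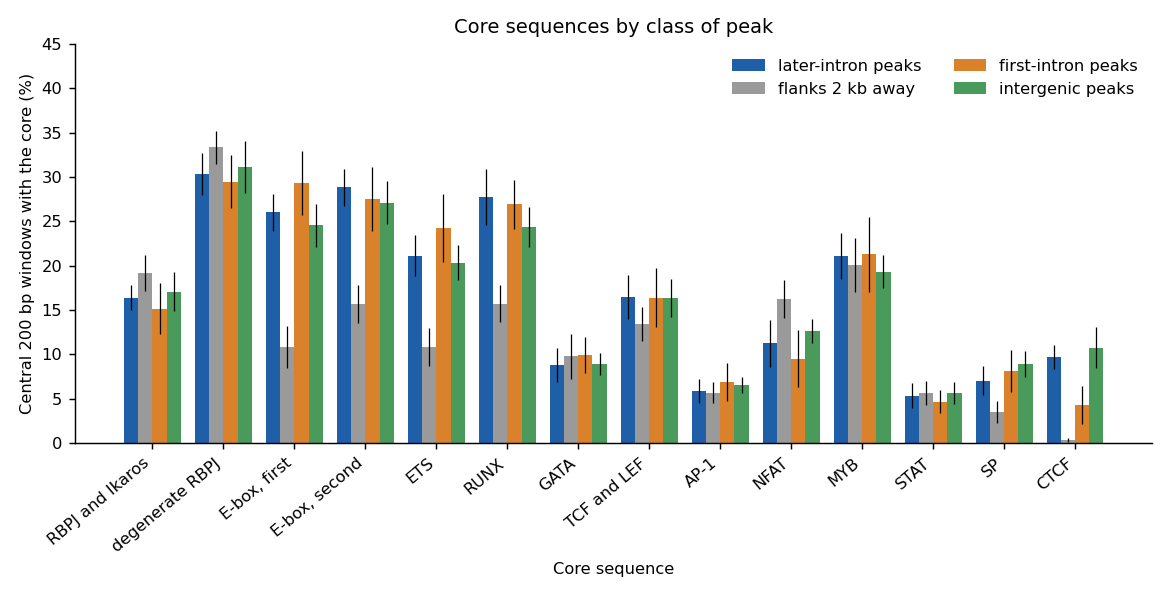
Share of central 200 bp windows with each of 14 cores in later-intron peaks, their flanks 2 kb away, first-intron peaks and intergenic peaks (bars, percent of windows; lines, SD over 19 autosomes; E-box, first is CAGCTG and second is CAGGTG). Both E-boxes, ETS, RUNX and CTCF stand above the flanks, while the RBPJ and NFAT bars lie below them.

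Both E-boxes and the RUNX, ETS and CTCF cores were concentrated at the middle of the peaks. Within 50 bp of the centre there were 1.84 CAGCTG sites per kb, and 0.581 at 400 to 500 bp. For CAGGTG the values were 1.87 and 0.863, for RUNX 1.91 and 0.853, and for ETS 1.35 and 0.599 sites per kb. CTCF sites were the most centred, with 0.723 per kb within 50 bp (464 sites) and 0.00779 at 400 to 500 bp (10 sites). More sites per kb at the centre were also found for the SP, TCF and LEF, MYB and AP-1 cores. Their ratios to 400 to 500 bp were 2.80, 1.32, 1.17 and 1.10. The RBPJ and Ikaros core was rarer at the centre, at 0.832 sites per kb against 1.01 at 400 to 500 bp, and so was the NFAT core, at 0.574 against 1.01. The centre also held fewer GATA, STAT and degenerate RBPJ sites per kb, with ratios of 0.935, 0.834 and 0.921 to the outer windows. The 2 E-boxes and the RUNX, ETS and CTCF cores, 5 in all, were then counted together, a choice made after their values were seen. At least 1 of them was present in 73.8% of the peaks and 43.0% of flanks, and 3 or more in 7.28% and 0.935%. ETS and RUNX cores occurred together in 5.72% of peaks and 1.78% of flanks. The 5 cores had the largest differences from these same flanks, so their joint excess follows in part from the choice. No joint share was computed for all autosomal peaks. No core of the 5 was found in 1679 peaks.

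**Figure D3:**
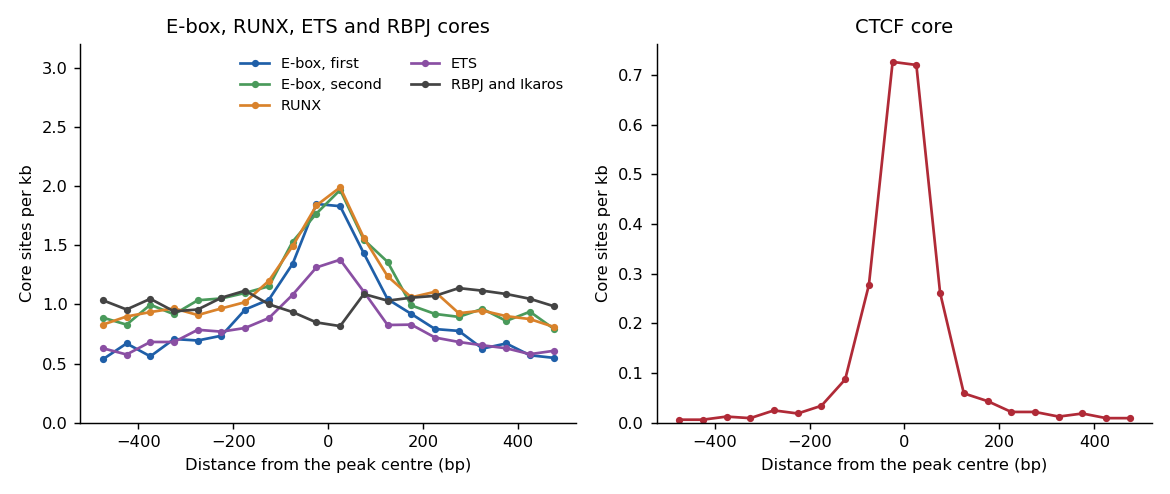
Core sites per kb in 50 bp bins around the centre of the 6416 later-intron peaks, for E-boxes (first CAGCTG, second CAGGTG), RUNX, ETS and the RBPJ and Ikaros core (left), and for CTCF (right, with its own scale). E-box, RUNX, ETS and CTCF sites peak within 50 bp of the centre, and the RBPJ and Ikaros line is lowest there.

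All words of 6 bases were also compared with the flanks. Of 2080 words joined with their reverse complements, 511 (24.6%) were more frequent in the peaks and 599 (28.8%) less frequent (permutation test over autosomes, Benjamini-Hochberg adjusted p under 0.05). Of the 604 words with CG, 137 were more frequent in the peaks and 30 less frequent. The more frequent ones were thus no larger a share than the 24.6% of all words. Among the 10 words with the largest ratio, 9 held CG, such as GGCGCC (3.49% of peaks and 0.733% of flanks) and CGCCCC (7.98% and 2.71%), although the rule selects against CpG. CAGCTG was the 1 word without CG among these 10, at a log2 ratio of 1.32 ± 0.07 (SE). Next among words without CG came CACTAG, at 13.9% of peaks and 6.72% of flanks, which is contained in many CTCF sites, and then the ETS core. The 5 lowest were words of A and T only. They began with ATTAAT (1.42% of peaks and 4.23% of flanks) and included AATAAT (3.57% of peaks and 10.8% of flanks). In the 2699 pairs of near-equal GC content, which are fewer, 129 words were more frequent and 159 less, and all of the 5 lowest words but AATAAT no longer passed. Among the 10 highest, GAGCGC did not pass there and neither did the word CCCGCC, while CAGCTG did (log2 ratio 1.10).

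Compared with first-intron peaks, later-intron peaks differed most in the CTCF core. It was present in 9.65% of later-intron and 4.25% of first-intron peaks, higher on 18 of 19 autosomes by 5.07 ± 2.68 percentage points (permutation test, adjusted p = 2.80e-04 over 14 cores). In contrast, CAGCTG (26.0% and 29.3%, permutation test, adjusted p = 0.0126) and the ETS core (21.1% and 24.2%, adjusted p = 0.0028) were less frequent in later introns. CAGGTG (28.8% and 27.5%) and RUNX (27.7% and 26.9%) did not pass the test. At equal distance from a start the CTCF shares were 10.2% and 4.41% (difference 5.83 ± 2.73 percentage points, permutation test, adjusted p = 8.00e-05). CAGCTG and ETS also passed at equal distance, by -3.73 and -2.92 percentage points (permutation test, adjusted p = 0.00145 and 0.00122). Later and first introns were not compared at equal intron length. Later-intron peaks with the CTCF core lay in shorter introns than those without it (median 4.95 and 11.6 kb), and the part of intron length was not tested. At 1 to 2 kb from a start, 12.4% of later-intron peaks (38 peaks) and 3.59% of first-intron peaks (7 peaks) held the CTCF core. Beyond 50 kb the shares were 6.18% (95% Wilson interval 4.80 to 7.93%) and 3.83% (1.87 to 7.68%). None of the 3 differences passed among peaks of at least 500 bp, where CTCF differed by 1.68 percentage points (permutation test, adjusted p = 0.295). In windows of 400 bp the differences were -2.31 percentage points for CAGCTG and -2.75 for ETS, and neither passed (permutation test, adjusted p = 0.211 and 0.0863).

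Compared with intergenic peaks the differences were small. RUNX cores were more frequent in later introns (27.7% and 24.3%; higher on 15 of 19 autosomes, permutation test, adjusted p = 0.00476), and SP cores less frequent (7.03% and 8.89%; lower on 15, adjusted p = 0.0128). Neither passed with a CpG ratio under 0.4 (permutation test, adjusted p = 0.197 and 0.217). The CTCF core was found in 9.65% and 10.7% (permutation test, adjusted p = 0.106), and this difference passed among peaks more than 2 kb from a start (-1.58 percentage points, adjusted p = 0.0381).

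The 619 later-intron peaks with a CTCF core were then described further. Over these peaks and the whole set, 20 comparisons were chosen after values had been seen, with p-values adjusted over the 20. The 619 peaks held 626 sites, 300 on the strand of the host gene and 326 on the other. The commonest of the 16 possible words, with the number of sites in peaks and in flanks, show how sharply this core separates both.
Commonest word, 78 sites in peaks and 1 in flanks: CCAGCAGAGGGC
Next word, 67 sites in peaks and 2 in flanks: CCACCAGGGGGC
Next word, 62 sites in peaks and 0 in flanks: CCACTAGGTGGC
Next word, 62 sites in peaks and 2 in flanks: CCAGCAGGGGGC

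Peaks with the CTCF core were narrower than the other later-intron peaks, at a median of 406 and 463 bp (smaller on 19 of 19 autosomes, permutation test, adjusted p = 8.00e-05). They had fewer of the other cores, with CAGCTG in 15.2% and 27.2% (permutation test, adjusted p = 1.00e-04), RUNX in 15.5% and 29.0% (8.00e-05) and ETS in 16.2% and 21.6% (0.00863). Another peak within 5 kb was present for 17.1% of them and 25.8% of the others (permutation test, adjusted p = 0.00132). Their introns were shorter, at a median of 4.95 and 11.6 kb (shorter on 19 of 19 autosomes, permutation test, adjusted p = 8.00e-05), and 50.7% and 31.9% lay within 1 kb of an exon (8.00e-05). The part of intron length in the latter difference was not tested.

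Host genes had open promoters more often than other genes. Of the 3315 host genes, 2235 (67.4%) had a peak within 1 kb of one of their own starts, against 6642 of 12543 other coding genes with later introns (53.0%). Standardised for the length of later-intron sequence, the difference was 18.5 ± 5.39 percentage points (higher on 19 of 19 autosomes, permutation test, p = 2.00e-05). It was largest in the 20% of genes with most later-intron sequence, where 67.6% of hosts (95% Wilson interval 65.2 to 69.9%) and 37.1% of other genes (34.8 to 39.5%) had a promoter peak. In the 20% with least, the shares were 49.1% (36.6 to 61.7%) and 50.4% (48.6 to 52.2%). In density, genes with a promoter peak carried 16.7 later-intron peaks per Mb and the others 5.55. In hosts with an open promoter 26.97% of the peaks held CAGCTG, and in the others 23.6% (permutation test, adjusted p = 0.0396). The differences in ETS, RUNX and width did not pass. Peaks with a CTCF core lay less often in hosts with an open promoter (62.8% and 73.0%; lower on 16 of 19 autosomes, permutation test, adjusted p = 7.14e-04).

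**Figure D4:**
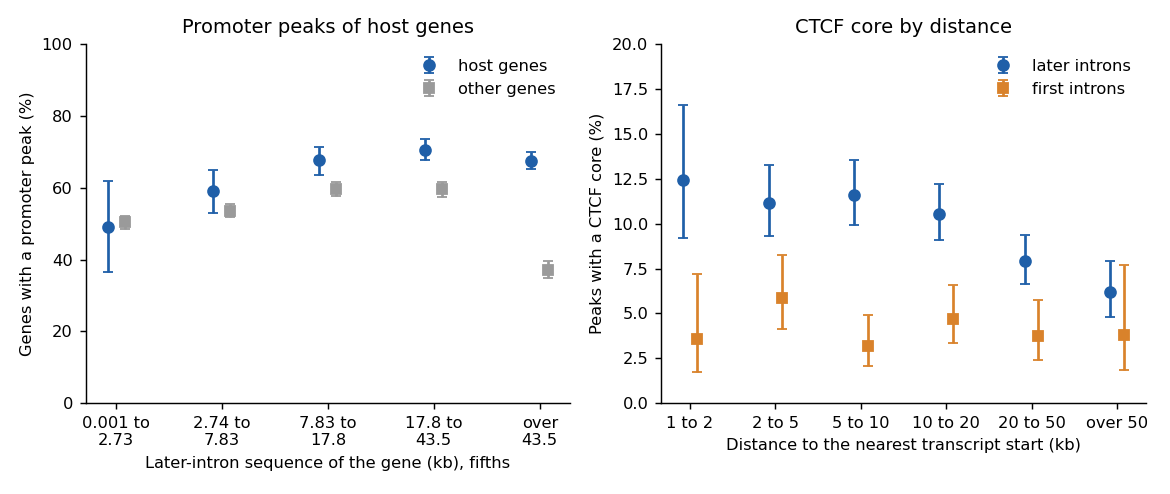
Left, share of coding genes with a peak within 1 kb of a start, for hosts of later-intron peaks and other genes, in 5 equal classes of later-intron length. Right, share of later-intron and first-intron peaks with the CTCF core by distance to the nearest start (points, percent; bars, 95% Wilson intervals, counting error only). Hosts stand apart most in the longest class (67.6 against 37.1%), and later introns have the higher CTCF share in each distance class.

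Later-intron peaks had fewer close neighbours than first-intron peaks. Another peak of the list lay within 5 kb for 24.98% of them and for 35.2% of first-intron peaks (difference -10.2 ± 6.004 percentage points, lower on 19 of 19 autosomes, permutation test, p = 2.00e-05). For intergenic peaks the share was 30.4%. For 3.57% of later-intron and 10.1% of first-intron peaks the neighbours were promoter peaks only. When neighbours within 1 kb of a start were left out, the shares were 21.4% and 25.1% (difference -3.83 ± 6.02 percentage points, lower on 12 of 19 autosomes, permutation test, adjusted p = 0.0187).

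Gene lists chosen for the cell type were then followed. Of 38 lymphoid transcription factor genes with later-intron sequence, 22 (57.9%) held later-intron peaks, 78 in all, or 21.4 per Mb, against 20.9% of all coding genes and 10.7 per Mb. For T-cell receptor signaling 14 of 35 genes (40%) held 34 peaks (21.8 per Mb), for the Notch pathway 11 of 34 (32.4%) held 20 (18.95 per Mb), and for cytokine receptors, JAKs, STATs and SOCS 7 of 27 (25.9%) held 11 (21.8 per Mb). B-cell and myeloid genes reached 10.0 per Mb, with 9 peaks in 7 of 25 genes (28.0%), and 4 of the 25 genes had an open promoter. Neuronal adhesion and channel genes, with a median of 573 kb of later-intron sequence per gene, had 29 peaks in 9 of 30 (30.0%), or 1.38 per Mb, and 1 of 30 had an open promoter. An open promoter was found for 28 of 38 lymphoid transcription factor genes (73.7%) and 31 of 35 T-cell receptor signaling genes (88.6%). The same held for 29 of 34 Notch pathway genes (85.3%) and 21 of 27 cytokine genes (77.8%). Of all host genes 67.4% had one, and of the other coding genes with later-intron sequence 53.0%. The lymphoid, T-cell receptor, Notch and cytokine lists, at 18.95 to 21.8 per Mb, were above the overall density of 10.7 per Mb. They were also above the 16.7 per Mb of all genes with an open promoter, though nearer to it. Genes without an open promoter had 5.55 per Mb. The B-cell and myeloid list, at 10.0 per Mb, lay above that value and the neuronal list, at 1.38, below it. No test was made between lists, and the share of host genes depends on gene length.

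Among lymphoid transcription factors, Runx1 held 10 peaks in introns 2, 5 and 6, from 3.99 to 184.8 kb from the start of the host transcript and from 298 to 909 bp wide. Of these 10, 8 lay in intron 2, which is 129851 bp long. Ikzf1 held 7 peaks, 6 of them in intron 3 between 25.7 and 55.6 kb from the start and 1 in intron 7, including 1 of 1349 bp (chr11:11625223-11626571). All 7 held at least 1 of the 5 cores, as did 73.8% of all later-intron peaks. Rora held 7 peaks, 6 in intron 2 and 1 in intron 3, 573 kb or more from the start. Runx2 and Ets1 held 6 peaks each, and those of Ets1 lay in introns 3 and 5 of 2 different transcripts. Bcl11b, needed for T-cell commitment, held 5, all in intron 3 of 48257 bp. The E protein gene Tcf12, the forkhead gene Foxp1 and Nfatc1 held 4 each.

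In the signaling lists, Itpkb held 7 peaks, all in intron 2 (78443 bp) between 25.9 and 76.8 kb from the start. Fyn held 6, of which 5 were in intron 3, and Ptprc, which encodes the phosphatase CD45, held 5, all in intron 2 of 48688 bp. Of the 5 peaks of Ptprc, 4 held a RUNX core, and the other held an ETS core. These cores were present in 27.7% and 21.1% of all later-intron peaks. Stat4, which acts downstream of interleukin-12, held 5 peaks, in introns 2, 4, 11 and 18, without a promoter peak. Maml3, a Mastermind-like coactivator of Notch, held 4 peaks in intron 2, between 257 and 403 kb from the start. In the neuronal list, Cacna1c held 9 peaks, 8 of them in intron 3 (272276 bp), and Kcnma1, a potassium channel gene, held 5, both without a promoter peak. Nrxn2 held 6 in 6 introns and was the 1 gene of its list with a promoter peak.

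**Figure D5:**
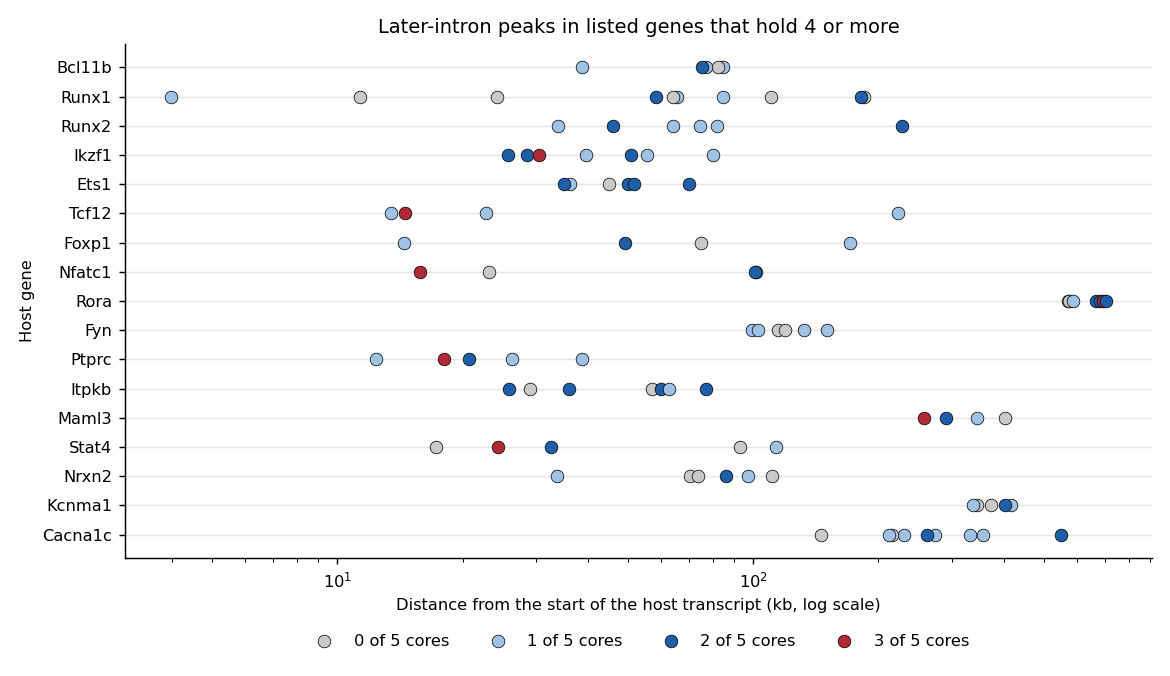
Later-intron peaks of the 17 listed genes that hold 4 or more, by distance from the start of the host transcript (kb, log scale; 1 point per peak; colour, number of different cores among both E-boxes, ETS, RUNX and CTCF in the central 200 bp). Runx1 has 10 points from 3.99 to 184.8 kb, and those of Rora lie beyond 500 kb.

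Notch1 and some of the loci that the study shows as examples of RBPJ binding were checked too, while Gm266, another of them, was not analysed here. Dtx1, a ubiquitin ligase gene of the Notch pathway, held 3 later-intron peaks, at 14.7, 23.2 and 26.0 kb from the start of its transcript. The 2 in intron 3 contained TGGGAA, and that at chr5:121138358-121139044 also CAGGTG, ETS and RUNX cores. Sufu, a Hedgehog pathway regulator, held 6, in introns 3, 6, 8 and 10, of which 1 contained TGGGAA. They lay 47.4 to 82.6 kb from the start, whereas the study's primers for static RBPJ binding at Sufu are named for a place close to it. For Dtx1, the study's primers are named for a place 26 kb from the start, close to the distance of the peak at 26.0 kb. The study also shows static RBPJ binding at Dtx1. Whether these primers fall inside that peak was not checked, and RBPJ binding at the peaks of both genes was not examined here. Notch1 held 1 later-intron peak, in intron 3 with none of the searched cores, and 4 first-intron peaks. Il2ra, the interleukin-2 receptor alpha chain gene, had 5 peaks in its first intron and 0 in its 14.7 kb of later introns. No later-intron peak was found in Notch3, Lgmn or Dennd2d, nor in the short genes Hes1 and Hey1, which had 0 and 0.892 kb of later-intron sequence to search.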

How the data were processed

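ATAC-Seq was done by the authors with a commercial kit on 6 libraries of Beko cells, 3 with GSI and 3 with DMSO. Groups come from the labels. The processing notes name HISAT2 2.2.1, Picard, MACS2 and build mm9. Per the methods, peaks were called without input, kept when found in 3 of 6 libraries, and cleared of blacklisted regions. The deposited values are peak starts and ends in bp, in 1 list, with a score of 0 for each peak. This procedure keeps peaks of 1 treatment without recording which, and leaves depth unknown.

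Peaks were placed on NCBIM37, the same build as mm9, with GENCODE vM1, with Python 3.11.15, pandas 2.3.3, numpy 2.4.6 and scipy 1.17.1. Cores and words of 6 bases were searched on both strands, with a pseudocount of 0.5 for word ratios. Benjamini-Hochberg adjustment was made over 14 cores, 2080 words or 20 added comparisons. Host density uses intron sequence outside exons and more than 1 kb from starts. Genes were named by rule as those with most or densest peaks, widest peaks, listed genes with 4 or more, Notch1 and loci shown by the study. The test was tried on simulated data. Members, cores and lists were chosen with earlier results of these data known. Alternatives are in the closing section.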

Additional observations from a re-analysis of the deposited data

How the results depend on the processing

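No paired analysis was possible because no library has values of its own in these data, and for the same reason leaving out each library was not run. Keeping only peaks of at least 500 bp left 2503 peaks, with a width difference from first introns of -11.9 bp (permutation test, p = 0.104) and from intergenic peaks of -25.6 bp (p = 2.00e-05), which bear little on the width results since the minimum is set on width itself. There the density ratio to first introns was -0.23 (log2, permutation test, p = 0.00609) and the ratio near exons to deeper 0.037 (log2; p = 0.499). Under this minimum 0 cores passed against first introns, in place of 3, and 708 words of 6 bases passed, in place of 1110. With a CpG ratio under 0.4, the width difference from intergenic peaks was -6 bp (permutation test, p = 0.142) and 0 cores passed against them, in place of 2. With windows of 400 bp, 1 core passed against first introns. In pairs of near-equal GC content 288 words passed. Within classes of intron length, which was added after the data were seen, the ratio near exons to deeper was -0.19 (log2). Fewer peaks or pairs entered at 500 bp and at equal GC content, and the causes of the changes were not tested. The other 57 recomputed main values kept their direction and side of the threshold, or for counts stayed within 1.5 times, also without introns over 200 kb (6268 peaks, added after the data were seen). For single cores and words, 383 values stayed on their side of the threshold, 15 no longer passed and 6 newly passed. Direction was checked where a value passed in the main or the changed setting, and none of those turned. Cores that passed in neither were counted as unchanged whatever their direction, and some of these changed sign. Within 10 kb in place of 5 kb, the neighbour difference was -14.7 percentage points.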
